A study of Mus musculus with 12 samples.

Results

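The miR-297, miR-466, miR-467, and miR-669 families are rodent miRNA families whose genes lie mostly inside the Sfmbt2 gene, and their levels were followed in microglial exosomes after repetitive mild traumatic brain injury (rmTBI). Members were chosen by name: every mouse miRNA on the array whose name begins with 1 of the 4 family names, 61 of 1881 miRNAs. miR-467a-3p was left out because its probe name is in doubt against miR-124-3p, which left 60 members: 3 of the miR-297, 23 of the miR-466, 11 of the miR-467, and 23 of the miR-669 family. Each member had 30 spots per array, spread over 1 to 4 probes.

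A miRNA is cut from an RNA hairpin, whose 5p and 3p arms can each give a mature strand, and it represses mRNAs that pair with its seed, bases 2 to 8 from its 5′ end. Sfmbt2 encodes a Polycomb group protein and is imprinted, with expression from the paternal allele, and the miRNA cluster in one of its introns is best known from the rodent placenta. Many of its miRNAs contain runs of alternating C and A or of G and U, so that their sequences resemble each other closely. In the RefSeq annotation of GRCm38.p6, all 72 miRNA genes inside Sfmbt2, on chromosome 2, belonged to these 4 families, and 10 further family genes lay elsewhere. Of the 60 members, 49 had all their hairpin genes inside Sfmbt2, 8 had all of them outside, and 3 had both, so the name of the cluster does not cover every member.

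Arrays of 4 groups, 3 each, were compared, all from male C57BL/6 mice aged 12 weeks: sham mice, handled in the same way without an impact, and mice at 3, 14, and 42 days post-injury (DPI) after 4 closed-head impacts given at intervals of 48 h. Vesicles were isolated from bilateral cerebral cortex and hippocampus and captured with an antibody to CD11b, a surface protein of microglia and other myeloid cells. The sources do not say whether an array holds RNA of 1 mouse or of a pool, so the spread between arrays may be partly technical. All 3 sham arrays and 3 DPI replicate 1 were on 1 slide and the other 8 arrays on a second slide, so that slide and group cannot be told apart for sham against 14 or 42 DPI.

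The arrays differed in overall signal. The 75th percentile of scanner intensity, over the 230 miRNAs detected on all 12 arrays, lay between 217 and 348 on the sham arrays, 401 and 619 at 3 DPI, 588 and 1173 at 14 DPI, and 1385 and 2936 at 42 DPI. The number of miRNAs detected rose with it, from between 243 and 285 in sham to between 490 and 579 at 42 DPI. Of 6 miRNAs listed as markers of myeloid cells and microglia, 1 was detected on all sham arrays and 4 on all 42 DPI arrays, and miR-142a-5p was detected on no array. All 3 oligodendrocyte markers and 5 of 6 neuronal markers were detected on all sham arrays, so the label of microglial exosomes rests on the capture and not on these markers. The summed scaled signal of the neuronal markers lay in sham, 3 DPI, 14 DPI, and 42 DPI, in this order, in the ranges 9.76 to 12.4, 10.74 to 13.8, 10.0 to 21.3, and 17.6 to 21.2, and that of the oligodendrocyte markers in 1.80 to 2.51, 2.12 to 3.63, 2.15 to 4.11, and 4.12 to 4.43. For the myeloid markers it was 0.702 to 0.969, 0.661 to 1.003, 0.754 to 1.32, and 1.38 to 1.53. For the 3 vessel markers the sums were 1.07 to 1.47 in sham and 1.49 to 1.74 at 42 DPI, and for the 3 erythrocyte markers, of which miR-144-3p was never detected, 0.108 to 0.147 and 0.0769 to 0.106. The part of other cell types, slide, and overall signal in the results below was not tested.

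RefSeq sequences (GRCm38.p6) could be matched for 7 members, all encoded outside Sfmbt2. They are shown because they differ in whether they were measurable in these exosomes. The first 3 were detected on all 12 arrays, miR-669n on 6 arrays, and the last 3 on no array. Capitals mark the seed.
miR-466i-3p: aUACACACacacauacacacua
miR-466q: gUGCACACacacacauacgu
miR-467f: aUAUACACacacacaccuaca
miR-669n: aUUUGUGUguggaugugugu
miR-466j: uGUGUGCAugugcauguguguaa
miR-466k: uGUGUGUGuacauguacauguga
miR-467g: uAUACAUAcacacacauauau

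These mature strands lie at chr13:17747552-17747573 (miR-466i-3p, plus strand), chr3:28419988-28420007 (miR-466q, plus), chr11:69635419-69635439 (miR-467f, minus), chr3:115979905-115979924 (miR-669n, plus), chr10:60960802-60960824 (miR-466j, plus), chr3:85467396-85467418 (miR-466k, plus), and chr5:34732872-34732892 (miR-467g, minus). No 2 of the 7 share a seed. The 3 strands detected on all arrays are all CA-rich: the longest run of repeated base pairs is 5 copies of AC in miR-466i-3p, 6 copies of CA in miR-466q, and 6 copies of AC in miR-467f. miR-466i-3p shares an identical stretch of 14 bases with miR-466q and of 13 bases with miR-467f, while miR-466q and miR-467f share 11. miR-467g, which was not detected, shares 11 bases with each of the 3. Whether a probe for 1 member also captures another member's RNA was not tested, and members of a family are therefore not independent measurements.

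Of the 60 members, 45 were detected on no array, which is 75% against 68.0% of all miRNAs on the array, where a miRNA counts as detected if the scanner software placed over 0.5 of a probe's spots well above background, for 1 or more of its probes. None of the 3 miR-297 miRNAs was detected, while 7 of 23 miR-466, 4 of 11 miR-467, and 4 of 23 miR-669 miRNAs were detected on at least 1 array. By place in the genome, 9 of the 49 members encoded only inside Sfmbt2, 5 of the 8 encoded only outside it, and 1 of the 3 with both were detected at least once. Of the members named for an arm, 7 of 25 from the 3p arm and 4 of 25 from the 5p arm were detected at least once. On all 12 arrays, 8 members were detected: miR-466f-3p, miR-466h-3p, miR-466i-3p, miR-466i-5p, miR-466q, miR-467f, miR-669c-3p, and miR-669p-3p. For miR-466i, both arms of 1 hairpin on chromosome 13 were in this set.

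**Figure D1:**
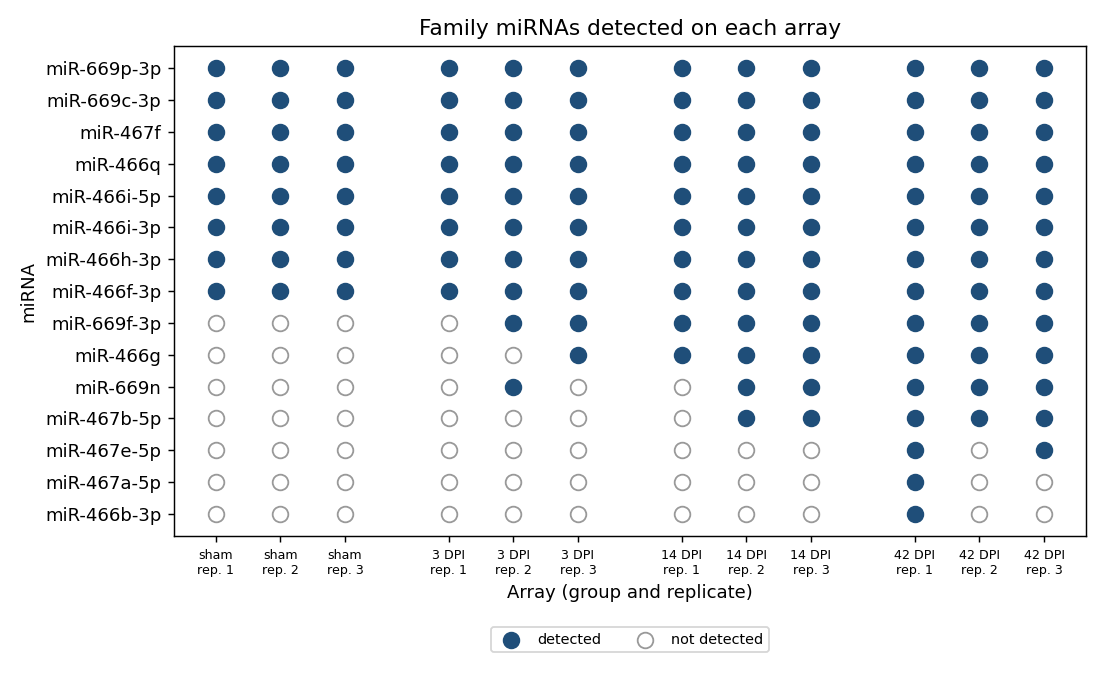
Detection of the 15 family miRNAs that were detected at least once (rows) on each of the 12 arrays (columns, by group and replicate); a filled circle means detected and an open circle not detected. The sham arrays show the same 8 miRNAs, and 42 DPI replicate 1 shows all 15.

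By this rule the remaining 7 detected members were seen only in injury groups. miR-669f-3p was detected on 2, 3, and 3 arrays at 3, 14, and 42 DPI, miR-466g on 1, 3, and 3, miR-669n on 1, 2, and 3, and miR-467b-5p on 0, 2, and 3. miR-467e-5p was detected on 2 arrays of 42 DPI, and miR-467a-5p and miR-466b-3p on 42 DPI replicate 1 alone. The members detected numbered 8 on each sham array, 8, 10, and 10 on the 3 DPI arrays, 10, 12, and 12 on the 14 DPI arrays, and 15, 12, and 13 on those of 42 DPI, and this number rose together with the number of all miRNAs detected. The scanner software's own detection call was more permissive: it held for miR-669f-3p on all 12 arrays, for miR-466g on 11, 2 of them sham, for miR-669n on 9, 1 of them sham, and for miR-467d-3p on 2 arrays of 42 DPI.

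The design asks how exosomal miRNAs differ from sham at an acute, a subacute, and a chronic time after injury. The test covered 486 miRNAs, those that 1 or more groups showed on all 3 arrays, and 12 of them were family members: the 8 above with miR-466g, miR-467b-5p, miR-669f-3p, and miR-669n. The last 4 passed only through an injury group and had too few spots well above background on every sham array, so their differences from sham are the output of the fit and not measured fold changes, and counts over the 12 are no support for a direction. Values are log2 signal relative to the array's 75th percentile, with a floor of -5.42, and differences are differences of these values.

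At 42 DPI the 8 members detected on all arrays were 3.49- to 5.79-fold lower than in sham relative to the rest of the array, although their intensities before scaling were higher at 42 DPI than in sham, by 1.22- to 2.03-fold in the means. The size moved with the processing, to 2.04- to 3.38-fold with the 75th percentile taken over all miRNAs and to 2.92- to 15.3-fold with the total signal of the scanner software, where miR-466f-3p was the farthest. Limma called all 8 lower (adjusted p under 0.05), as it did 26.5% of the 230 miRNAs detected on all arrays. For all 8, the 3 arrays at 42 DPI lay below the 3 sham arrays on the scaled values, as for 41.3% of the 230. The median difference of the 8 was -2.32 on the log2 scale, against -0.022 over the 230. Over the 12 tested members, limma called 9 lower and 0 higher, the ninth being miR-466g, and the arrays did not overlap for 11. Over all 486 miRNAs, 35.8% were called in either direction, 21.4% were called lower, and 37.9% had all 3 arrays below all 3 sham arrays. Without 42 DPI replicate 1 the count was 5 of 12, all lower, with 11.1% of all 486 miRNAs called lower. A lower scaled signal is relative to the rest of the array and does not by itself show less of the miRNA. In exosomes, the number of vesicles carrying a miRNA and its amount per vesicle cannot be told apart.

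In the miR-466 family, miR-466q stood at -1.51, -1.42, and -2.10 on the sham arrays and at -4.67, -3.76, and -4.10 at 42 DPI. miR-466h-3p stood at -0.93, -0.86, and -1.47 in sham and at -4.02, -3.10, and -3.51 at 42 DPI. In both cases the highest 42 DPI array was more than 1 log2 unit below the lowest sham array. The differences were -2.50 ± 0.54 (SE, n = 3 per group, adjusted p = 0.0104) for miR-466q and -2.46 ± 0.52 (adjusted p = 0.0104) for miR-466h-3p, a 5.65- and a 5.49-fold lower scaled signal. Before scaling, miR-466q read 100.1, 80.9, and 81.4 in sham and 115, 102, and 109 at 42 DPI, so its intensity was higher on each of the 42 DPI arrays.

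miR-466i-3p was at -2.32, -2.26, and -2.87 in sham and at -5.32, -4.31, and -4.71 at 42 DPI, a difference of -2.30 ± 0.53 (adjusted p = 0.0124). The other arm of its hairpin, miR-466i-5p, was at -0.23, -0.015, and -0.46 in sham and at -2.41, -1.61, and -2.08 at 42 DPI, a difference of -1.80 ± 0.40 (adjusted p = 0.0116). The groups did not overlap for either arm. miR-466i-5p had the smallest difference of the 8, and its intensity before scaling was the one that was highest on a 42 DPI array, 551 on replicate 1 against 215 to 253 in sham. For miR-466f-3p the scaled values were -1.78, -1.74, and -2.49 in sham and -4.78, -3.86, and -4.19 at 42 DPI, a difference of -2.27 ± 0.54 (adjusted p = 0.0140). miR-466f-3p and miR-669c-3p lost their call when sham replicate 1, sham replicate 2, or 42 DPI replicate 1 was left out, with adjusted p between 0.0516 and 0.0606. Without 42 DPI replicate 1 miR-466i-3p was lost as well (adjusted p = 0.0532), and without 42 DPI replicate 3 miR-669c-3p (adjusted p = 0.0527).

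miR-466g was called lower, with a difference of -1.72 ± 0.51 (adjusted p = 0.0315), but it did not pass the detection rule on any sham array, so that this is a difference from a group without a measured level. Its scaled values were -3.33, -3.08, and -3.90 in sham and -5.42, -4.85, and -5.19 at 42 DPI, while its intensities were 28.3, 25.6, and 23.3 in sham and 58.9, 48.0, and 50.8 at 42 DPI. The scaled value on 42 DPI replicate 1 was the floor, so the size of the difference depends on the floor. More than 0.5 of the spots of a probe were well above background on the 3 arrays of 42 DPI, while the scanner software's own detection call also held on 2 of the sham arrays. The call was lost when any of sham replicates 1 and 2 or the 3 arrays of 42 DPI was left out, with adjusted p from 0.0543 to 0.106.

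miR-467f, the only miR-467 miRNA detected on all arrays, had the largest difference of the 12 members. It was at -0.80, -0.67, and -1.40 in sham and at -3.95, -3.10, and -3.42 at 42 DPI. The difference was -2.53 ± 0.52 (95% interval -3.72 to -1.34, adjusted p = 0.0099), or 5.79-fold lower. Its intensities before scaling were 164, 136, and 132 in sham and 191, 162, and 173 at 42 DPI, and these overlapped, as for no other of the 8. The second tested miR-467 miRNA, miR-467b-5p, was near the floor throughout, and its difference was 0.14 ± 0.19 (adjusted p = 0.577).

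In the miR-669 family, miR-669p-3p was at -0.22, -0.17, and -0.74 in sham and at -3.20, -2.33, and -2.66 at 42 DPI. The difference was -2.35 ± 0.53 (adjusted p = 0.0116), and its 4 probes, taken singly, gave -2.19 to -2.49. Probes of other members agreed less: -1.39 and -2.50 for miR-466q, -1.36 and -2.13 for miR-466i-3p, and, among the 4 of miR-466f-3p, -1.63 and -2.32 for those above background on all arrays and 0 and -0.10 for those above it on 0 and 2 arrays. The 2 probes of miR-669c-3p gave -0.52 and -1.90, and the dimmer one was above background on 6 arrays. miR-669c-3p was at -2.80, -2.78, and -3.45 in sham and at -5.42, -4.80, and -5.21 at 42 DPI, a difference of -2.13 ± 0.53 (adjusted p = 0.0158). Its value on 42 DPI replicate 1 was the floor, so that the size of the fall depends on the floor, and with 2 times the floor it was no longer called (-1.41, adjusted p = 0.0792). miR-669f-3p and miR-669n were not called, at -1.27 ± 0.46 (adjusted p = 0.0576) and -0.35 ± 0.18 (adjusted p = 0.136).

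**Figure D2:**
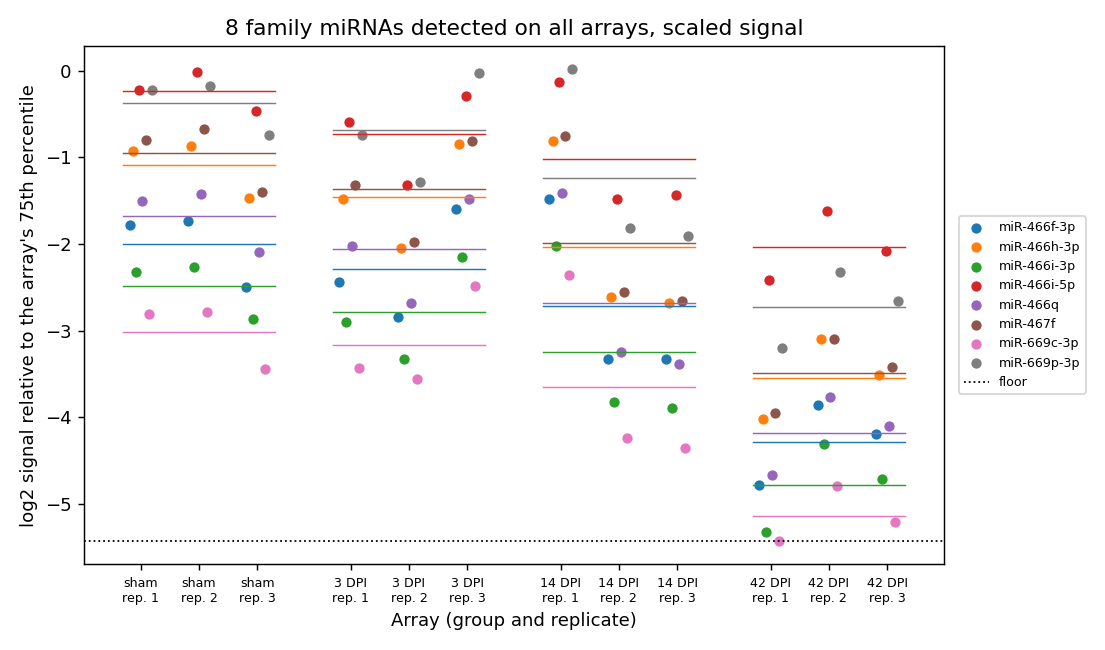
Log2 signal relative to the 75th percentile of the array for the 8 family miRNAs detected on all arrays, by group and replicate; points are arrays, horizontal lines are group means, and the dotted line is the floor. All 42 DPI points lie below the sham points of the same miRNA on this scale (before scaling the 42 DPI means were the higher ones), and 3 DPI replicate 3 and 14 DPI replicate 1 lie at the level of sham.

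The slide could not be separated from this comparison. With slide as a block, 3 DPI replicate 1 is the only array of an injury group on the slide of the sham arrays. In this fit the differences of the 8 members at 42 DPI were between -1.59 and -2.53. Of the 12 members 0 were called (limma, adjusted p of 0.210 or higher), as were 0 of all 486 miRNAs. At an unadjusted p under 0.05 there were 7 members and 108 of all 486 miRNAs. Within the first slide, 3 DPI replicate 1 minus the sham mean was -0.35 to -0.43 for the 8. Within the second slide, the 42 DPI mean minus the mean of the 2 arrays of 3 DPI was -1.23 to -2.12 for the 8, and minus the 14 DPI mean it was -1.02 to -1.57.

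At 14 DPI, 0 of the 12 members were called by limma, and 3.7% of all 486 miRNAs were called. The scaled values of all 3 arrays lay below all 3 sham arrays for 0 of the 12, against 9.47% of all tested miRNAs. None of the 12 had an unadjusted p under 0.05, against 103 of all 486 miRNAs. The median difference from sham was -0.82 over the 8 members on all arrays and -0.00028 over all tested miRNAs, although before scaling the 8 were higher on each 14 DPI array than on any sham array. The largest negative difference was that of miR-467f, -1.03 ± 0.52 (adjusted p = 0.301), and the largest positive one that of miR-467b-5p, 0.11 ± 0.19 (adjusted p = 0.793).

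The 3 arrays at 14 DPI did not form 1 level. miR-467f was at -0.75, -2.55, and -2.66, miR-466h-3p at -0.81, -2.62, and -2.68, and miR-669p-3p at 0.013, -1.81, and -1.91. Replicate 1 lay at the level of sham in each case, and the other 2 replicates lay below it by more than 1 log2 unit. The standard deviation within the group was 0.768 to 1.12 for the 8 members at 14 DPI, against 0.224 to 0.423 in sham. Without 14 DPI replicate 1, limma called 8 of the 12 members lower at 14 DPI, with miR-467f at -1.65 (adjusted p = 0.0178); of all 486 miRNAs, 15.8% were then called lower and 18.5% higher.

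The other 5 members on all arrays followed the same course at 14 DPI. miR-466q read -1.41, -3.24, and -3.38, miR-466i-3p -2.02, -3.82, and -3.89, and miR-466f-3p -1.48, -3.32, and -3.33. miR-466i-5p read -0.13, -1.48, and -1.44, and miR-669c-3p read -2.36, -4.24, and -4.36. For each of the 5, replicate 1 was the highest of the 3 arrays.

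At 3 DPI, 0 of the 12 members and 0% of all 486 miRNAs were called by limma. At an unadjusted p under 0.05 there were 0 members and 10 miRNAs in all, and all 3 arrays lay below all 3 sham arrays for 0 members, against 1.44% of all tested miRNAs. The median difference of the 8 members on all arrays was -0.34, and the largest negative and positive differences were those of miR-466i-5p, -0.50 ± 0.40 (adjusted p = 1), and miR-669f-3p, 0.046 ± 0.46 (adjusted p = 1). The 3 arrays at 3 DPI did not form 1 level either. miR-467f was at -1.32, -1.98, and -0.81, miR-669p-3p at -0.74, -1.29, and -0.030, and miR-466i-5p at -0.60, -1.32, and -0.29, so that replicate 3 was at the level of sham and replicate 2 was the lowest. The same order held for the other 5: miR-466h-3p was at -1.48, -2.05, and -0.84, miR-466q at -2.02, -2.68, and -1.48, miR-466i-3p at -2.90, -3.33, and -2.15, miR-466f-3p at -2.44, -2.84, and -1.60, and miR-669c-3p at -3.43, -3.56, and -2.49.

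Between the 2 later times, 0 of the 12 members and 0% of the 486 miRNAs were called at 42 DPI against 14 DPI by limma, with 9 members and 55 of all miRNAs at an unadjusted p under 0.05. For the 8 members the scaled differences ran from -1.02 to -1.57, with adjusted p of 0.324 to 0.366, and all 3 arrays at 42 DPI lay below all 3 at 14 DPI for 11 of the 12 members, against 30.2% of all tested miRNAs. The largest was that of miR-466f-3p, -1.57 ± 0.54 (95% interval -2.79 to -0.35), and the only positive one that of miR-467b-5p, 0.032 ± 0.19. A p above the threshold does not show that the 2 times were alike.

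At 42 DPI against 3 DPI, limma called 9 of the 12 members lower and 0 higher, with 41.6% of all 486 miRNAs called in either direction and 27.4% called lower. The 9 were the 8 members on all arrays, at -1.30 to -2.12, and miR-669f-3p, at -1.32 ± 0.46 (adjusted p = 0.0463). The value of miR-669f-3p was the floor on 42 DPI replicates 1 and 3, so the size of its difference depends on the floor. Before scaling its mean intensity was 31.1 at 3 DPI and 42.2 at 42 DPI. With no scaling, 2 members were called higher and 0 lower, with 63.0% of all 486 miRNAs called higher and 0.412% lower. The count was 0 without 3 DPI replicate 3, 0 without 42 DPI replicate 1, 0 without 42 DPI replicate 3, and 0 on the second slide alone, with 9, 9, 9, and 8 members at an unadjusted p under 0.05. Over all 486 miRNAs these fits called 50, 0, 42, and 57 in either direction, with 185, 202, 206, and 215 at an unadjusted p under 0.05. With the replicate number as a block 7 were called, all lower, with 23.9% of all 486 miRNAs called lower. The 7 did not include miR-466i-5p (adjusted p = 0.0559) or miR-669f-3p (adjusted p = 0.0713).

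On the scaled values the 8 members moved together from array to array. When each was centered on its own mean over the 12 arrays, the 8 lay within 0.13 to 0.61 log2 units of each other on any 1 array, while the median of the 8 ranged from 1.25 on 14 DPI replicate 1 to -1.98 on 42 DPI replicate 1. The spread over the spots of the brightest probe was 7.17% of its mean at the median, and 20.5% at most, over these miRNAs and arrays. All 8 were divided by the same 75th percentile, whose log2 value also differed between arrays. Relative to its own mean it stood at 2.07 on 42 DPI replicate 1 and at -0.25 on 14 DPI replicate 1. On sham replicate 2 it stood at -1.69, where the median of the 8 was 1.08. The part of this shared divisor in the common movement was not tested. The members do not count as 8 separate observations of the change, because they were read on the same arrays, share the divisor, and resemble each other in sequence.

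Before scaling, the same miRNAs varied much less than most. From the dimmest to the brightest array, the intensity of the 8 members ranged 2.57-fold (miR-466i-5p) to 3.63-fold (miR-669c-3p), with a median of 2.95-fold, while the median range over the 230 miRNAs detected on all arrays was 12.6-fold and the 75th percentile itself ranged 13.5-fold. By the size of this range, the 8 took places 11 to 29 from the smallest among the 230. For 7 of them 14 DPI replicate 1 was the brightest array, and for all 8 the dimmest array was sham replicate 2 or 3. miR-669p-3p read 244, 192, and 208 in sham, 240.5, 254, and 442 at 3 DPI, 593, 334, and 296.7 at 14 DPI, and 319, 276, and 294 at 42 DPI. The 42 DPI intensities were thus above the sham ones and below those of 14 DPI replicate 1 and 3 DPI replicate 3.

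**Figure D3:**
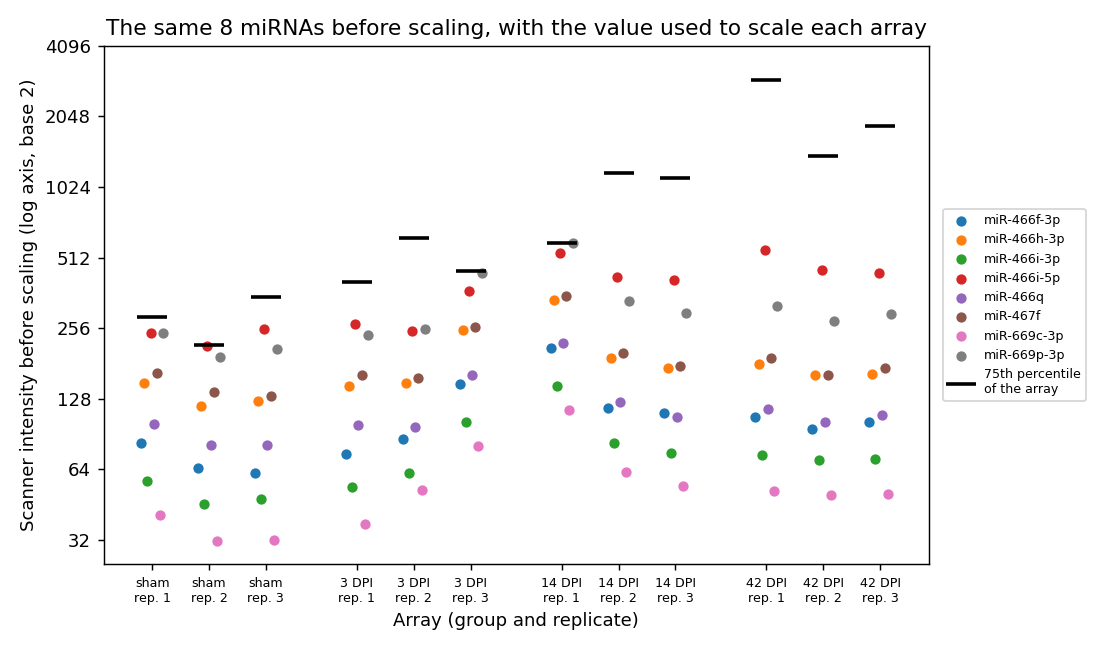
Scanner intensity before scaling (log axis) of the same 8 miRNAs on the 12 arrays, by group and replicate, with the 75th percentile that scaled each array as a black bar. The bars climb from 217 on sham replicate 2 to 2936 on 42 DPI replicate 1, while each miRNA stays within a 2.57- to 3.63-fold range and has a higher mean at 42 DPI than in sham.

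The sign of the differences at 42 DPI therefore depended on the scaling. With no scaling, all 12 differences were positive, and limma called 5 of the 12 members higher and 0 lower. Of all 486 miRNAs, 86.0% were called higher and 0% lower. The 5 were miR-466i-5p (adjusted p = 0.0124), miR-466g (adjusted p = 0.0204), miR-467b-5p, miR-669f-3p, and miR-669n. Except for miR-466i-5p, they did not pass the detection rule on any sham array. Among the members detected on all arrays, the differences ran from 0.29 to 1.02, and miR-466i-5p alone was called. The adjusted p ran from 0.191 to 0.424 for miR-466f-3p, miR-466h-3p, miR-466i-3p, and miR-466q. It was also above the threshold for miR-467f, miR-669c-3p, and miR-669p-3p. The count of 5 thus gives no direction for that set. The median difference of the members detected on all arrays was 0.49, and their highest was 1.02. Over all tested miRNAs the median was 2.02. Over the 12 members it was 0.55, which includes members that did not pass the detection rule in sham. With quantile normalization, 9 were called lower and 1 higher, against 17.9% lower and 30.7% higher of all 486 miRNAs, whose median was 0.36. With the 75th percentile taken over all miRNAs, 9 were called lower and 1 higher, against 15.2% and 35.0% of the 486, whose median was 0.54. In the deposited table, whose scaling is unknown and whose median over all miRNAs tested shifted by 0.44, 10 were called lower and 2 higher, against 21.8% lower and 29.4% higher.

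The 2 called higher in the deposited table were miR-467b-5p and miR-669n, at 4.12 and 4.13, against 0.14 and -0.35 on the values scaled here. Their deposited values were all below 0 in sham, from -2.15 to -1.12 for miR-467b-5p and from -1.08 to -1.03 for miR-669n, and from 1.77 to 2.83 and 2.97 to 3.21 at 42 DPI. The lowest value in that table, at which most values stand, was -3.32. Neither passed the detection rule on a sham array, although the scanner software's own call held for miR-669n on 1 of them. For the 8 members detected on all arrays, the deposited table placed the 42 DPI arrays below the sham arrays, with miR-467f at 6.65, 6.67, and 6.03 in sham and 3.97, 4.70, and 4.42 at 42 DPI.

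**Figure D4:**
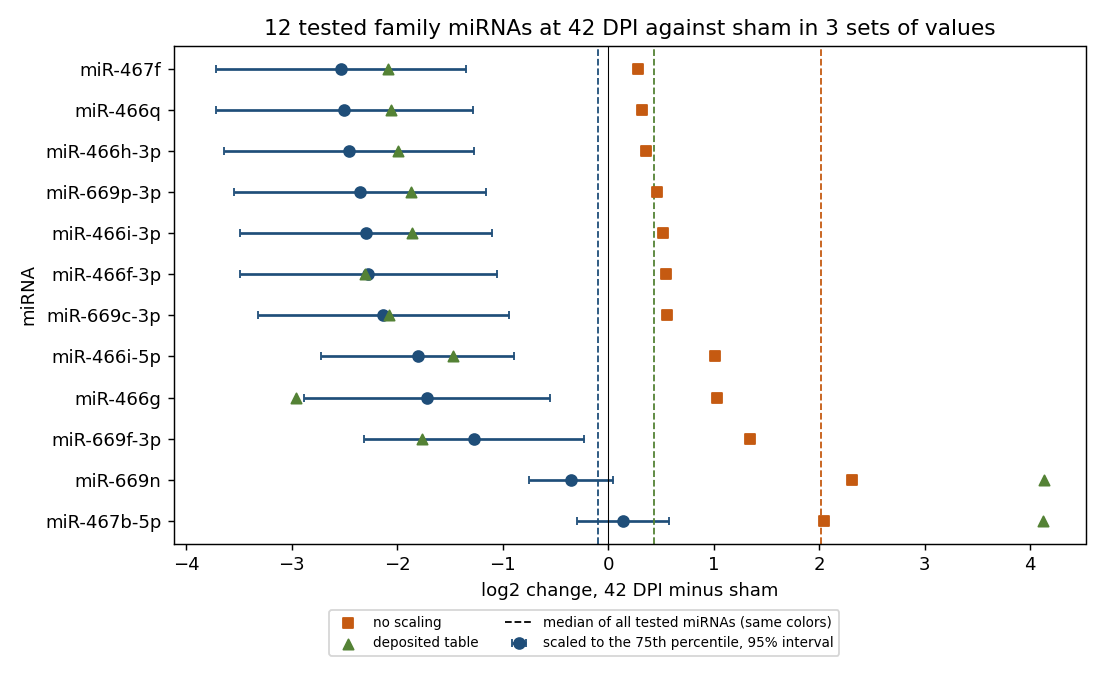
Log2 difference between 42 DPI and sham for the 12 tested family miRNAs: circles with 95% intervals are values scaled to the 75th percentile, squares are values with no scaling, and triangles are the deposited table; dashed lines of the same colors are the medians of all tested miRNAs. The circles run from -2.53 to 0.14 and the squares from 0.29 to 2.31, so that the sign differs between them for 11 miRNAs, and 10 squares lie left of their dashed line at 2.02. The 12 include miR-466g, miR-467b-5p, miR-669f-3p, and miR-669n, which did not pass the detection rule on any sham array.

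Other miRNAs with similar repeats were read on the same arrays. Among the 1608 array miRNAs with a RefSeq mature sequence, 13 (0.808%) held at least 4 copies in a row of GU, UG, AC, or CA on the mature strand; the 4 patterns overlap each other. Of the 13, 6 were family members and 7 were not. Of these 7, miR-6348, miR-32-3p, and miR-3097-5p were not detected on any array, miR-672-5p was detected on 5, and 3 were detected on all 12, shown here because their repeats are of G and U rather than of C and A (capitals mark the seed).
miR-574-5p: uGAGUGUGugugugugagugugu
miR-1187: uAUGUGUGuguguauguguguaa
miR-3082-5p: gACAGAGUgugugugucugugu

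They lie at chr5:64970328-64970350 (plus strand), chr5:82798964-82798986 (minus), and chr17:25831406-25831427 (minus), and hold runs of 6, 5, and 5 copies of GU. At 42 DPI their scaled signals were lower than in sham, by -1.81 ± 0.39 (adjusted p = 0.0108) for miR-574-5p, -1.92 ± 0.41 (adjusted p = 0.0104) for miR-1187, and -1.75 ± 0.36 (adjusted p = 0.0097) for miR-3082-5p. As for the family, their intensities before scaling were higher at 42 DPI: miR-574-5p read 71.1, 67.6, and 79.6 in sham and 165, 137, and 137 at 42 DPI. Their intensities ranged 2.51- to 2.60-fold over the 12 arrays. The scaled value of miR-3082-5p on 42 DPI replicate 1 was the floor, so the size of its fall depends on the floor. miR-672-5p, with 4 copies of UG, did not pass the detection rule on a sham array and went the other way, 0.69 ± 0.23 (adjusted p = 0.0444). The list is short and was described, not tested, as a list.

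The 8 members and miR-466g apart, 51 of the 60 members gave no call at 42 DPI, and for 48 of the 60 there was no test. The 3 members that were detected but not tested, miR-466b-3p, miR-467a-5p, and miR-467e-5p, stood at the floor on all 12 arrays after scaling. Their brightest intensities were on 42 DPI replicate 1, at 33.0, 28.6, and 31.3. For the 45 members that were never detected, the scanner gives a signal not well above background, and at this signal a change could not be seen.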

How the data were processed

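In all, 12 single-color Agilent miRNA arrays were used. The authors deposited 1 scanner file per array (Agilent Feature Extraction 10.7.1.1, per the labels) with an intensity per spot, corrected for background and not normalized between arrays, and a table of log2 values, 1 column per array, whose scaling and centering the sources do not give; each column has a median of -3.32, and higher means brighter.

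Here control spots and spots flagged as outliers were dropped, spots averaged per probe, probes summed per miRNA, and sums divided by the array's 75th percentile, taken over the 230 miRNAs that every array detected. A floor of -5.42 on the log2 scale was set at the median over arrays of the lowest signal among detected miRNAs. Spot names of the injury arrays were used, since 2 spots per sham array carry other names. The 486 miRNAs that 1 or more groups showed on all 3 arrays entered 1 limma fit (limma 3.58.1, R 4.3.3) over 12 arrays and 4 groups, with Benjamini-Hochberg adjustment over all 486. Precision is limited by 3 arrays per group.

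The named members are those tested: values on every array are given for called members and those detected on all arrays, and the largest positive and negative difference at each time. Members and lists were chosen with earlier results of these data known. Deviations of same-numbered sham and 14 DPI arrays correlated at 0.84, 0.44, and 0.74 over the 486 miRNAs, and a replicate block left 0 of 12 members called there. For sham and 42 DPI the correlations were -0.38, -0.019, and 0.24, and for sham and 3 DPI -0.45, 0.57, and -0.73. For 14 and 42 DPI they were -0.59, -0.65, and 0.21. Without values for differently numbered arrays, whether the numbers pair the arrays is not settled. The script was tested on simulated data.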

Additional observations from a re-analysis of the deposited data

Results flagged for a closer look

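The difference from sham was not the same at 42 DPI as at 3 DPI: the direct comparison of both times in the same limma fit called 9 of the 12 tested members lower at 42 DPI and 0 higher, with 27.4% of all 486 miRNAs called lower. These were miR-467f (-2.12), miR-466q (-2.11), miR-466h-3p (-2.09), miR-669p-3p (-2.05), miR-466i-3p (-1.99), miR-466f-3p (-1.99), miR-669c-3p (-1.98), miR-669f-3p (-1.32), and miR-466i-5p (-1.30). The scaled value was the floor for miR-669f-3p on 42 DPI replicates 1 and 3 and for miR-669c-3p on 42 DPI replicate 1. In the second slide alone the count was 0, with 8 members and 215 of all 486 miRNAs at an unadjusted p under 0.05 (limma). The median over the members detected on all arrays was -2.08 there. The count was also 0 without 3 DPI replicate 3, without 42 DPI replicate 1, or without 42 DPI replicate 3. With the replicate number as a block it was 7, without miR-466i-5p and miR-669f-3p, and 23.9% of all miRNAs were called lower. With no scaling, 2 were called higher and 0 lower, with 63.0% of all 486 miRNAs called higher and their median at 1.59.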

How the results depend on the processing

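The values below count family members called among the 12 tested, unless another number is given. At 42 DPI against sham the main count of 9 became 0 with slide as a block, as for all 486 miRNAs. With no filter it became 0 of 60, with 53 of all 1881 miRNAs called. At an unadjusted p under 0.05 (limma) there were then 10 members and 259 miRNAs in all. With no scaling it became 5, all higher (86.0% of all higher). Leaving out 1 array gave 5 (without 42 DPI replicate 1, 11.1% of all lower) to 11 (without 3 DPI replicate 3, 25.1% of all lower). At 14 DPI the count of 0 became 12, all lower, with normexp and an offset of 50 (73.3% of all 486 miRNAs lower), 7, all higher, with no scaling (71.6% of all higher), 3 (2 higher) in the deposited table, and 1 with the total signal of the scanner software; leaving out 1 array gave 0 to 8. At 3 DPI it became 2, both lower, with normexp (36.6% of all lower). In the deposited table it became 3, of them 1 higher (12.1% of all higher and 7.41% lower). It stayed at 0 when any array was left out. At 42 against 14 DPI it became 1, lower, in the deposited table (1.44% of all lower) and stayed at 0 when any array was left out.

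The sign also changed for miR-467b-5p with normexp (-0.78 at 14 DPI and -0.78 at 42 DPI) and miR-669n in the deposited table (4.13). With no scaling the differences at 42 DPI became 0.29 (miR-467f), 0.32 (miR-466q), 0.36 (miR-466h-3p), 0.47 (miR-669p-3p), 0.52 (miR-466i-3p), 0.54 (miR-466f-3p), 0.55 (miR-669c-3p), 1.02 (miR-466i-5p), 1.03 (miR-466g), 1.34 (miR-669f-3p), and 2.31 (miR-669n). Normexp moved the median of all miRNAs to -0.39, -0.75, and -0.86 at 3, 14, and 42 DPI. The replicate block gave 8 at 42 DPI (18.3% of all 486 miRNAs called lower), where miR-466g was lost (adjusted p = 0.0563). At 42 against 3 DPI it gave 7 (23.9% of all called lower), where miR-466i-5p and miR-669f-3p were lost (adjusted p = 0.0559 and 0.0713). It changed no other call of a member. Causes were not tested, beyond those that the construction of an alternative shows. Signal over background limits the 4 members not detected in sham.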
